A study of Mus musculus with 7 samples.

Results

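The genes described here are *Shcbp1l*, *Scml2*, *4930447C04Rik*, *Khdc1a* and *Brdt*, 5 of the 24739 genes in the expression table, together with the 375 retrotransposon loci that lie wholly inside their spans, of 3494995 LINE, SINE and LTR loci in the locus table. They were chosen because repeat loci in or near them fell in mutant testes, so their values in the comparison of mutant with wild-type are given as a description, without a test. Total RNA depleted of ribosomal RNA was sequenced from testes of 7 mouse embryos of the C57BL/6 strain at E14.5, with 1 pair of testes per library: 3 were labelled wild-type, and 4 were homozygous for the zf5 allele of *Glis3* (*Glis3*zf5/zf5, called mutant here). The allele is a germline deletion that disrupts the DNA-binding zinc fingers of the transcription factor GLIS3 in every cell of the embryo. No step selected for poly-A tails and cDNA was primed at random, so unspliced RNA was sequenced with mRNA.

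At E14.5 the male germ cells lie in the testis cords among Sertoli cells. They are leaving the pluripotent programme of the primordial germ cells and entering mitotic arrest, long before meiosis begins in the male. Genes of meiosis and of spermatogenesis can be transcribed in these cells at low levels. Many copies of LINE, SINE and LTR elements lie in introns and untranslated ends of genes, and a read from an unspliced or mature transcript of the host gene that falls in such a copy is counted for the element. *Brdt* encodes the testis member of the bromodomain and extra-terminal family, which binds acetylated histones. *Scml2* encodes a germline polycomb protein, *4930447C04Rik* (also called *Six6os1*) a protein of the central element of the synaptonemal complex, *Shcbp1l* a relative of SHCBP1 found mainly in male germ cells, and *Khdc1a* a KH-domain protein of a family known from oocytes and early embryos.

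In the library labelled wild-type replicate 3 the FPKM of *Glis3* (fragments relative to the length of the transcript and the depth of the library) was 2.91, within the range of 2.66 to 3.86 of the mutant libraries, against 7.63 and 6.89 in wild-type replicates 1 and 2. The label of this library was kept. Values without it are also given for the FPKM fold changes and locus sums of the genes described here. They are given as well for the numbers of genes and loci past the thresholds, and for the median of the germ cell genes. The fold changes of single loci, of neighbours and of listed genes, and the medians of the other lists, are given only with this library included. The locus table held 3454317 to 4670830 reads per library. Depths of the gene table relative to wild-type replicate 1, read from the steps between low FPKM values, were 0.79 to 0.93 in the other 6 libraries; absolute fragment numbers for FPKM are not known.

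The sequences that the results below refer to come first. RefSeq promoters (build GRCm38.p6, which is mm10) were at hand for 4 of the 5 genes; *Khdc1a* is named only. The 250 bases before the start of *4930447C04Rik* (chr12:72917766-72918015, minus strand) and of *Brdt* (chr5:107330944-107331193, plus strand) are shown because both held the E-box CACGTG, set in capitals with the other motifs found.
*4930447C04Rik*: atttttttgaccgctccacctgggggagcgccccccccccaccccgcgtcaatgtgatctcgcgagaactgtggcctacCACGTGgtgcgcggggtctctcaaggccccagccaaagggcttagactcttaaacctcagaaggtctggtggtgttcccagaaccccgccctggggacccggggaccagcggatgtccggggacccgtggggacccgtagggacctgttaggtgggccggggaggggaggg
*Brdt*: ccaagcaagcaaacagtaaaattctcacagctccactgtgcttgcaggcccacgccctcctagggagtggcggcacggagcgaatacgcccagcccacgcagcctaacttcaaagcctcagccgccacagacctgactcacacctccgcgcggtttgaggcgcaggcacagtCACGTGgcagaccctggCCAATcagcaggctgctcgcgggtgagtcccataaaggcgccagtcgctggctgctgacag
The motifs were picked with these sequences in view and searched on both strands; none of the matches overlaps another. The E-box began 171 bases before the start of *4930447C04Rik* and 78 bases before that of *Brdt*, and 6.02% of 32851 mouse promoter windows of this length held it. The CCAAT box of *Brdt* began 61 bases before the start and is in 33.8% of the windows. In *Shcbp1l* the E2F motif TTCCCGCC (1.86% of windows) began 73 bases before the start. No motif searched was in the window of *Scml2*, and the GLIS core TGGGGGGT (1.36% of windows) was in none of the 4. CpG dinucleotides numbered 19 in *Shcbp1l*, 16 in *4930447C04Rik*, 16 in *Brdt* and 7 in *Scml2*, against a median of 6 over all windows.

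The coding part of exon 2 of *Khdc1a* and of its 2 neighbours is shown because reads from these copies are hard to tell apart. The stretches lie on the plus strand of mm10 at chr1:21350258-21350347, chr1:21368892-21368981 and chr1:21384175-21384264, in that order, and capitals mark the 3 positions that are not the same in all of them.
*Khdc1a*: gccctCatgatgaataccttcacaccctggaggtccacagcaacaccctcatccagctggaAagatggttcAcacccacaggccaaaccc
*Khdc1c*: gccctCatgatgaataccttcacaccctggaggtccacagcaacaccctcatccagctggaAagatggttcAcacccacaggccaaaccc
*Khdc1b*: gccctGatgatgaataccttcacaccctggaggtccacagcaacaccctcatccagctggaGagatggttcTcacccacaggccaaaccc
*Khdc1a* and *Khdc1c* shared 497 of 498 coding bases (99.8%), and *Khdc1a* and *Khdc1b* shared 274 of the 283 bases of their first 2 coding exons (96.8%). The FPKM of *Khdc1a* and *Khdc1c* is therefore uncertain as a split between near-identical copies.

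The end of the coding part of exon 9 of *Shcbp1l* (chr1:153448964-153449023, plus strand, mm10) is shown because a copy of the SINE B4 overlaps it. The capitals are the 41 bases of the exon that lie in the annotated B4 element.
*Shcbp1l* exon 9: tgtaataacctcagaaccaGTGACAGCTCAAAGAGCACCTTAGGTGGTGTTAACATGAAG
Reads of the spliced, coding mRNA that cross these bases can be counted for the element.

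All 5 genes were highest in wild-type replicates 1 and 2 and low in every mutant library, and all were low as well in the library labelled wild-type replicate 3. *Scml2* and *4930447C04Rik* were the most abundant of the set, with mean FPKM of 14.6 ± 7.27 and 13.2 ± 8.17 in wild-type (SD, n = 3) and 7.78 ± 1.71 and 6.45 ± 1.43 in mutant (SD, n = 4). *Khdc1a*, *Brdt* and *Shcbp1l* lay lower, at 5.03 ± 3.53, 3.84 ± 2.45 and 2.88 ± 2.32 in wild-type and 1.19 ± 0.364, 1.31 ± 0.448 and 1.01 ± 0.721 in mutant. Within each genotype, the spread of *Scml2* and *4930447C04Rik* overlapped, as did that of the 3 lower genes, while in every single library the 2 former were above the 3 latter.

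*Brdt* (chr5:107331194-107387058, plus strand) had FPKM of 3.88, 6.27 and 1.38 in wild-type replicates 1 to 3 and of 1.98, 1.07, 1.17 and 1.03 in mutant replicates 1 to 4. The log2 fold change of log2(FPKM + 0.5), mutant minus wild-type, was -1.11 (standard error 0.39), a scale that understates changes of low genes. Wild-type replicates 1 and 2 lay above all mutant libraries, while the library labelled wild-type replicate 3 lay below mutant replicate 1. The mean of wild-type replicates 1 and 2 was 3.87 times the mutant mean.

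*Scml2* (chrX:161162750-161258213, plus strand) read 17.5, 20.0 and 6.33 FPKM in wild-type and 9.66, 8.79, 6.51 and 6.15 in mutant libraries. The value labelled wild-type replicate 3 was lower than 3 of the 4 mutant values. The log2 fold change was -0.74 (standard error 0.35), and wild-type replicates 1 and 2 alone were 2.41 times the mutant mean, the smallest ratio of the 5 genes.

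For *4930447C04Rik* (chr12:72881109-72917765, minus strand) the FPKM was 15.8, 19.8 and 4.10 in wild-type and 8.36, 6.71, 5.34 and 5.37 in mutant libraries. Here the library labelled wild-type replicate 3 was the lowest of all 7. The log2 fold change was -0.75 (standard error 0.45), and the ratio of wild-type replicates 1 and 2 to mutant was 2.76.

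*Shcbp1l* (chr1:153425209-153452574, plus strand) had 2.95, 5.17 and 0.527 FPKM in wild-type and 2.09, 0.591, 0.652 and 0.70 in mutant libraries. The library labelled wild-type replicate 3 was again the lowest, and mutant replicate 1 stood well above the other mutants. The log2 fold change was -0.95 (standard error 0.55), and wild-type replicates 1 and 2 were 4.03 times the mutant mean.

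*Khdc1a* (chr1:21349677-21352199, plus strand) had 5.12, 8.51 and 1.45 FPKM in wild-type and 1.73, 0.934, 1.04 and 1.06 in mutant libraries. Only mutant replicate 1 was above the library labelled wild-type replicate 3. The log2 fold change was -1.47 (standard error 0.45) and the ratio of wild-type replicates 1 and 2 to mutant was 5.72, both the largest of the 5 genes.

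**Figure D1:**
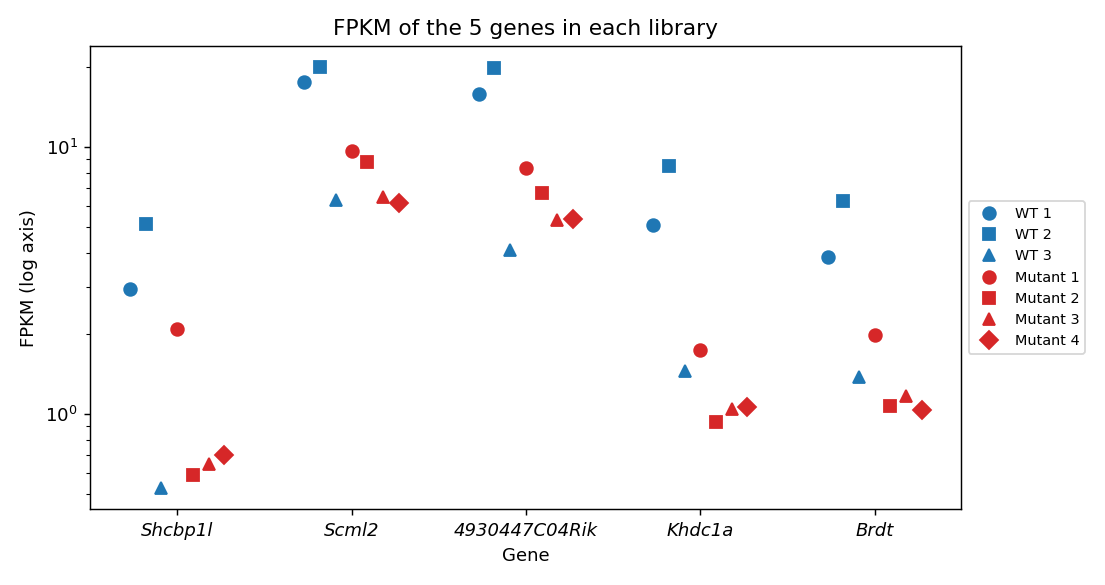
FPKM (log axis) of each of the 5 genes in the 3 wild-type (WT, blue) and 4 mutant (red) libraries, with 1 point per library and the marker shape giving the replicate number. WT 1 and WT 2 are the 2 highest points of every gene, and WT 3 sits among or below the mutant points.

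None of the 5 genes was past the threshold of limma across the 13988 genes that averaged at least 0.5 FPKM (adjusted p under 0.05), where 0.00715% of genes were; in none did all mutant libraries lie below all wild-type libraries, which was so for 7.59% of genes. All 5 had a log2 fold change below 0, as did 47.9% of genes. With the library labelled wild-type replicate 3 left out, 5 of the 5 genes passed, against 5.15% of all genes. In 5 of 5 genes both wild-type replicates 1 and 2 were above every mutant library, against 17.1% of genes. Since the genes were chosen on this contrast, these counts only describe them. In whole testis, fewer germ cells and less RNA per germ cell cannot be told apart.

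The 5 genes moved together over the 7 libraries, with Pearson correlations of log2(FPKM + 0.5) between 0.93 (*4930447C04Rik* and *Khdc1a*) and 0.99 (*Brdt* and *Khdc1a*), a description over 7 points that share the same libraries and the same split of wild-type replicates 1 and 2 from the rest. The genes most like each of them, among 12793 genes that averaged at least 1 FPKM, were *Abcb6*, *Rsph9* and *4921531P14Rik* for *Shcbp1l*, and *Tdrd5*, *Sycp2* and *Pnpla7* for *Scml2*. For *4930447C04Rik* they were *Xlr3c*, *Tuba3b* and *Hspbap1*. *Khdc1a* was most like *Cfap97*, *Rnf17* and *Spata5*, and *Brdt* most like *Cfap97*, *Nt5c2* and *Tdrd1*. These correlations lay between 0.99 and 0.998 over the 7 libraries. Among them, *Tdrd5*, *Tdrd1* and *Rnf17* encode Tudor-domain proteins of germ cells, and *Sycp2* a protein of the synaptonemal complex. The other genes named were not sorted by function, and *Cfap97* was the nearest gene to both *Khdc1a* (0.997) and *Brdt* (0.996).

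Of the 375 loci inside the 5 genes, 149 averaged at least 1 read and were tested with edgeR among 464695 loci of the genome. In 122 of the 149 the log2 fold change was below 0 and in 27 above, with a median of -0.70, against 0.02 over all loci tested, of which 48.8% were below 0. Past the threshold (adjusted p under 0.1) and lower in mutant were 8 of the 149 (5.37%), against 0.0594% of all loci tested, or 0.286% of those that averaged at least 10 reads; these are the values that chose the genes. None was past the threshold and higher, as 0.0213% of all loci were. The mutant libraries all lay below the wild-type libraries at 5 of the 149 loci, against 2.84% of all loci tested, and at none of the 8. At each of the 8, the library labelled wild-type replicate 3 was below the highest mutant library. The count rested on the libraries and the tool: it was 18 when that library was set aside, 1 when wild-type replicate 2 was, 4 when wild-type replicate 1, mutant replicate 2 or mutant replicate 4 was, and 0 with DESeq2, which gave 13 of the 149 an unadjusted p under 0.05.

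The 8 loci were unequally spread. *Shcbp1l* held 4 among 19 tested of 79, *4930447C04Rik* 2 among 51 tested of 67, *Scml2* 1 among 56 tested of 126, *Khdc1a* 1 among 2 tested of 2, and *Brdt* 0 among 21 tested of 101. *Brdt* thus carried no falling locus by this rule, and several loci inside the gene fell only in *Shcbp1l* and *4930447C04Rik*. Within 60 kb of the 5 genes there were 4 further loci past the threshold, all lower in mutant: 1 beside *4930447C04Rik* and 3 around *Khdc1a*. Ranked by the number of lower loci past the threshold inside the gene, *Erdr1* had 13 (its FPKM is listed at 0), *Shcbp1l* 4 and *Sycp1* 3. *4930447C04Rik* was 1 of 19 genes with 2, beside *Dazl*, *Tdrd1*, *Tdrd9*, *Mael* and *Tex14*, and *Scml2* and *Khdc1a* were among 67 genes with 1.

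In *Shcbp1l* the LTR element RLTR40 (chr1:153443143-153443764, intron) had 8.78, 14.8 and 1.38 CPM (read counts scaled to the TMM library size) in wild-type and 2.38, 1.65, 1.76 and 1.33 in mutant libraries. Its log2 fold change was -2.18, the largest of the 8. The B4 copy whose exonic bases are printed above (chr1:153448983-153449039) had 6.11, 17.5 and 0.462 CPM in wild-type and 7.13, 1.10, 0.88 and 1.60 in mutant libraries (log2 fold change -1.49). Mutant replicate 1 was above wild-type replicate 1 at this copy, the same library in which the FPKM of *Shcbp1l* was the highest among mutants. The LTR element RMER19B (chr1:153441714-153442477, intron) had 8.59, 11 and 1.15 CPM in wild-type and 1.33 to 3.52 in mutant libraries. The SINE RSINE1 (chr1:153439432-153439562, in the untranslated end of a shorter annotated transcript) had 3.44, 6.99 and 0.923 in wild-type and 0 to 2.11 in mutant libraries, on a mean of 8.71 reads, the fewest of the 8.

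*4930447C04Rik* held a B3 SINE (chr12:72897449-72897637, intron) with 15.1, 17.2 and 2.31 CPM in wild-type and 5.28, 5.50, 4.11 and 3.20 in mutant libraries. Its Lx8 LINE (chr12:72910320-72910688, intron) had 45.0, 42.5 and 13.2 CPM in wild-type and 20.3, 16.8, 21.7 and 18.7 in mutant libraries, on a mean of 104.7 reads, the most of the 8. The log2 fold changes were -1.34 and -0.79, and at both copies the library labelled wild-type replicate 3 was the lowest of the 7, as it was for the gene. A B1_Mus2 copy that lies 309 bases past the end of the gene (chr12:72880655-72880800) had 16.6, 24.5 and 2.77 CPM in wild-type and 4.40 to 7.92 in mutant libraries.

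The Lx9 LINE of *Scml2* (chrX:161233598-161234480, intron) had 26.2, 39.0 and 12 CPM in wild-type and 22.2, 14.6, 9.98 and 10.9 in mutant libraries, with a log2 fold change of -0.82. It was the longest of the 8 loci, at 883 bases.

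The MLTR11B element in the 3′ untranslated end of *Khdc1a* (chr1:21351769-21351883) had 17.6, 34.4 and 6.46 CPM in wild-type and 6.60, 4.68, 4.40 and 4.27 in mutant libraries, and held 97.3% of the reads of the 2 loci inside the gene. A second MLTR11B, at *Khdc1c* (chr1:21370414-21370518), had 9.16, 15.9 and 3.69 CPM in wild-type and 2.64, 1.10, 2.35 and 3.74 in mutant libraries. The log2 fold changes of the pair were -1.94 and -1.92. Both genes also had a B1F2 copy just before them. The one 20 bases before *Khdc1a* had 4.96, 11.6 and 1.38 CPM in wild-type and 1.33 to 2.35 in mutant libraries, and the one at *Khdc1c* 3.44, 6.46 and 0.692 against 0.264 to 1.38. At all 4 of these elements wild-type replicate 2 was highest and wild-type replicate 1 next, while the order of the other 5 libraries differed between the copies.

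*Brdt* had no locus past the threshold. The copy with most reads, an ID_B1 SINE in its untranslated end (chr5:107385920-107386057, 37.9% of the reads of its loci), had 6.30, 20.7 and 5.31 CPM in wild-type and 6.34, 6.88, 7.34 and 6.41 in mutant libraries. Only wild-type replicate 2 stood apart there. A further ID_B1 copy, in an intron (chr5:107377602-107377766), had 0, 1.08 and 1.15 CPM in wild-type and 1.10 to 1.33 in mutant libraries.

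**Figure D2:**
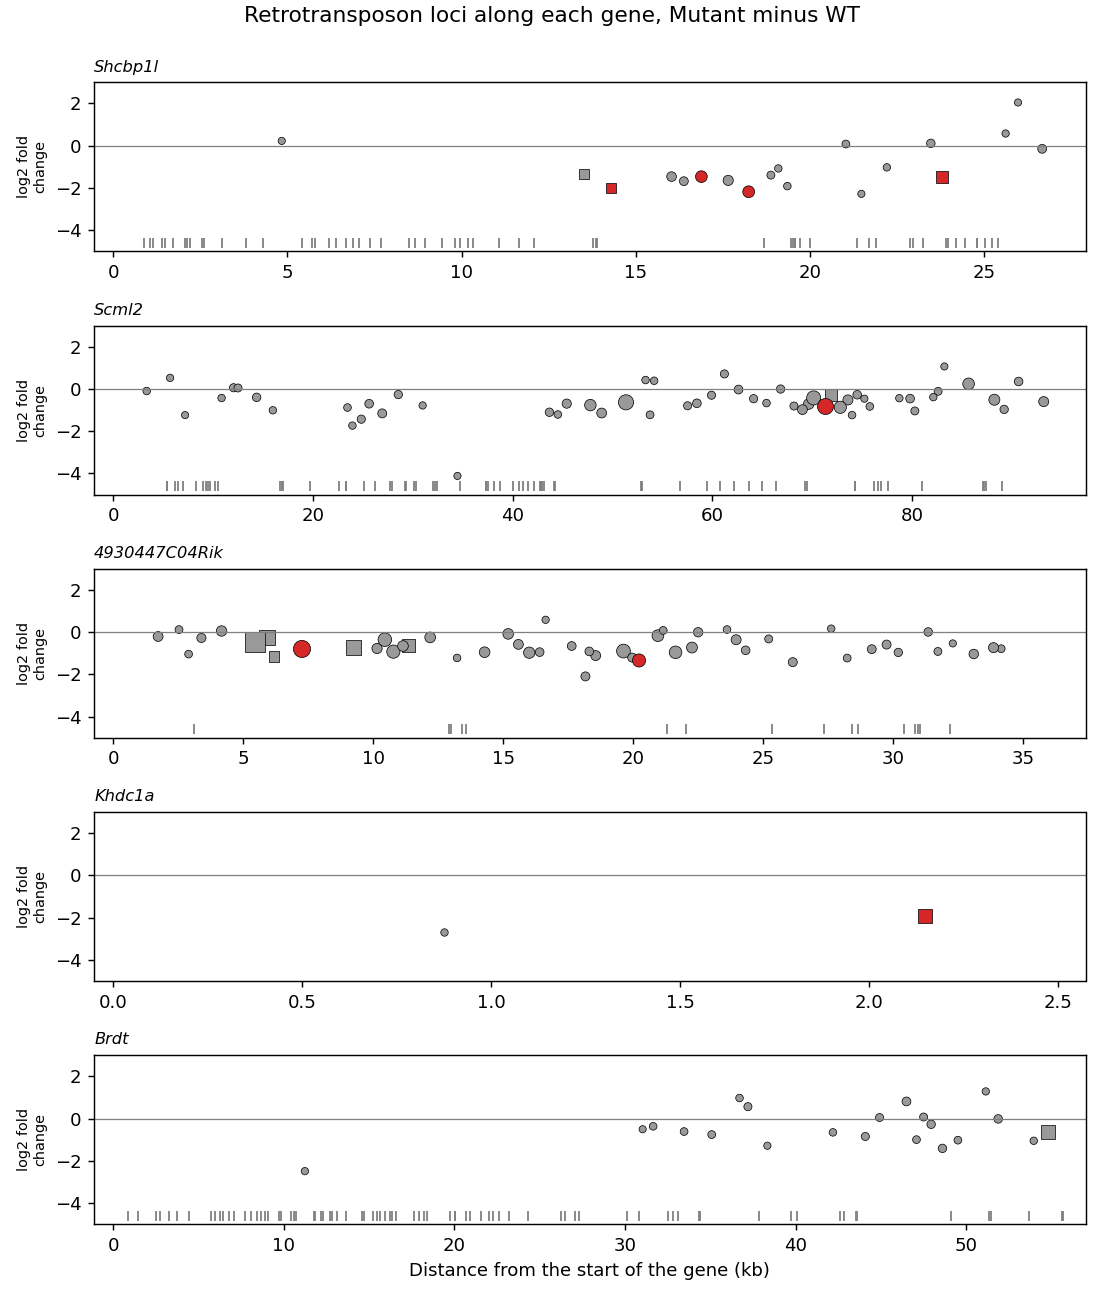
Log2 fold change (mutant minus wild-type) of each tested locus against its distance from the start of the gene in kb, for the 5 genes; squares overlap an exon, circles are intronic, larger symbols have more reads, red marks the 8 loci past the threshold and grey ticks at the bottom mark loci with too few reads to test. Most points lie below 0, and in *Shcbp1l* and *Brdt* most tested loci lie beyond the midpoint of the gene.

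Along the genes the reads were uneven. In *Shcbp1l* the part beyond the midpoint, in the direction of transcription, held 91.7% of its locus reads and 17 of its 19 tested loci, although 37 of the 79 loci lie before the midpoint. In *Brdt* 88.2% of reads and 20 of 21 tested loci were beyond the midpoint, with 61 of 101 loci before it. *Scml2* had 87.7% of its reads beyond the midpoint, whereas *4930447C04Rik* had 76.7% before it. The median log2 fold changes before and beyond the midpoint were -0.66 and -0.78 in *4930447C04Rik*, and -0.78 and -0.51 in *Scml2*, so the lower values were not limited to one end of either gene.

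By class, the 5 genes differed. *Scml2* held mostly LINE copies (70 of 126 loci), *Shcbp1l* (62 of 79), *Brdt* (78 of 101) and *4930447C04Rik* (43 of 67) mostly SINE copies, and the 2 loci of *Khdc1a* are 1 SINE and 1 LTR. The elements covered 47.8% of the span of *Scml2*, 44.1% of *Shcbp1l*, 33.8% of *4930447C04Rik*, 32.0% of *Brdt* and 10.3% of *Khdc1a*. Annotated on the strand opposite to the gene were 64.8% of the 375 loci and 6 of the 8 past the threshold, against 59.2% of the loci inside any gene. In *Scml2* the share was 81.0%. The alignment was unstranded and the strand setting of the counting is not given in the sources used here, so the strand from which these reads came is not known.

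Summed over all loci inside the gene, *Shcbp1l* had 45.8, 79.4 and 9.46 CPM in wild-type and 29.6, 10.2, 14.7 and 11.7 in mutant libraries. *Scml2* had 149, 182 and 66.2 against 99.3, 97.1, 79.2 and 70.2. *4930447C04Rik* had 350, 337 and 129 against 175, 175, 193 and 161. In these 3 genes the library labelled wild-type replicate 3 was the lowest of all 7. *Khdc1a* had 18.3, 35.2 and 6.69 against 6.60, 4.95, 4.40 and 4.27 and was the only sum in which every mutant library lay below every wild-type library, though 6.69 and 6.60 nearly meet. *Brdt* had 22.0, 41.4 and 16.8 against 21.1, 16.5, 22.0 and 14.1, so that wild-type replicate 1 was level with mutant replicate 3.

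The locus sums followed the FPKM of the host gene, with Pearson correlations over the 7 libraries of 0.99 for *Shcbp1l*, *Scml2* and *Khdc1a*, 0.94 for *4930447C04Rik* and 0.87 for *Brdt*. Both measures come from the same reads of the same libraries, and reads in exonic copies enter both; exonic copies held 97.3% of the locus reads of *Khdc1a*, 43.4% of *4930447C04Rik*, 38.5% of *Brdt*, 28.8% of *Shcbp1l* and 5.29% of *Scml2*. Locus CPM per FPKM was 16.3 ± 1.45 (SD, n = 3) in wild-type and 17.7 ± 3.50 (SD, n = 4) in mutant for *Shcbp1l*, and 4.11 ± 0.515 and 4.34 ± 0.66 for *Khdc1a*. *Scml2* had 9.36 ± 1.01 and 11.2 ± 0.787, and *4930447C04Rik* 23.5 ± 7.28 and 28.3 ± 6.45. For *Brdt* it was 5.65, 6.61 and 12.2 in wild-type and 10.7, 15.5, 18.8 and 13.7 in mutant libraries, so wild-type replicates 1 and 2 had fewer locus reads per unit of *Brdt* FPKM than all other libraries.

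**Figure D3:**
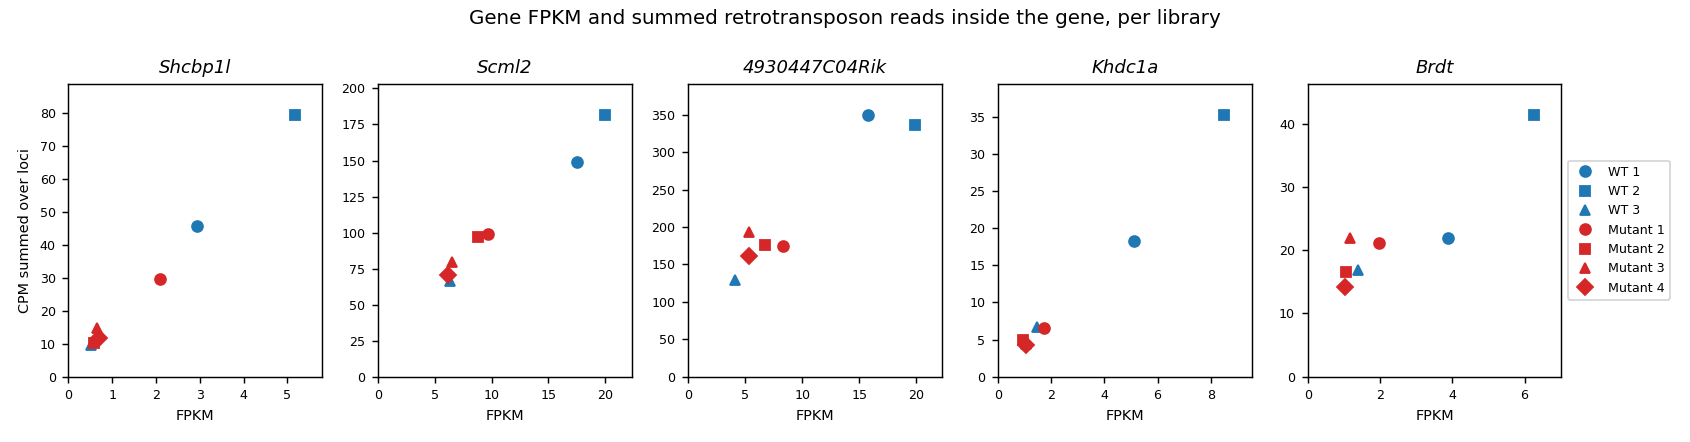
CPM summed over the retrotransposon loci inside each gene against the FPKM of the gene, with 1 point per library (WT blue, mutant red, shape for the replicate number) and axes that start at 0. In *Shcbp1l*, *Scml2* and *Khdc1a* the points lie near a line, while in *Brdt* WT 1 (22.0 CPM at 3.88 FPKM) is level with mutant libraries of lower FPKM.

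Among the nearest expressed neighbours, *Khdc1c* had an order of libraries like that of the 5 genes. None of the 10 neighbours was past the threshold of limma with all libraries (2 had an unadjusted p under 0.05, where 8.79% of all genes were lower and 8.21% higher). With the library labelled wild-type replicate 3 set aside, 2 were, against 5.15% of all genes, among them *Khdc1c* (adjusted p = 0.0108, limma). *Dhx9*, an RNA helicase gene 3.18 kb past *Shcbp1l*, had 73.0 ± 3.21 FPKM in wild-type and 68.2 ± 2.41 in mutant (log2 fold change -0.10), and *Lamc1* on its other side 25.6 ± 3.06 and 25.8 ± 2.22. *Nhs*, past the end of *Scml2*, had a log2 fold change of -0.04, and *Tgfbr3* and *Ephx4*, on either side of *Brdt*, 0.19 and 0.12. Beside *4930447C04Rik*, the phosphatase gene *Ppm1a* had 0.11. *Gsta3* before *Khdc1a* had a log2 fold change of 0.51, and *Khdc1c* had 2.05, 3.23 and 0.482 FPKM in wild-type and 0.172 to 0.57 in mutant libraries (log2 fold change -1.22, adjusted p = 0.212, limma). The last of these shares nearly all coding sequence with *Khdc1a*, as printed above.

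Of 12 listed paralogs 9 were tested and none passed limma's threshold (1 lower and 1 higher at an unadjusted p under 0.05, where 8.79% and 8.21% of all genes were). In 7 of the 9 the log2 fold change was below 0, against 47.9% of all genes, and the median was -0.12, against 0.008 over all genes. *Brd2* and *Brd3*, the bromodomain relatives of *Brdt* found in most cells, had log2 fold changes of 0.09 and -0.12. *Shcbp1*, the relative of *Shcbp1l* that is expressed in dividing cells, had 44.4 ± 5.62 FPKM in wild-type (n = 3) and 42.4 ± 2.64 in mutant (n = 4). The KH-domain genes *Dppa5a*, *Ooep* and *Khdc3* had -0.30, -0.12 and -0.60. The nearest copies of *Khdc1a* were lower: *Khdc1c*, given above with its neighbours, had -1.22, and *Khdc1b*, too low to test, had 0.294, 0.256 and 0.0678 FPKM in wild-type and 0 to 0.0637 in mutant libraries. These values of *Khdc1b* are near 0, and 0.0678 and 0.0637 nearly meet. *Khdc1c* was the 1 paralog that passed with the library labelled wild-type replicate 3 set aside, where 5.15% of all genes did.

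Among 29 polycomb genes, the setting in which SCML2 is known to act, 27 were tested. None passed limma's threshold (6 lower and 1 higher at an unadjusted p under 0.05, against 8.79% and 8.21% of all genes). The log2 fold change was below 0 in 17, against 47.9% of all genes, and the median was -0.07. In 4 of the 27 all mutant libraries lay below all wild-type libraries, as in 7.59% of all genes. *Rnf2*, the catalytic RING protein of polycomb repressive complex 1, had 83.0 ± 4.68 FPKM in wild-type and 83.9 ± 3.86 in mutant, and *Bmi1* a log2 fold change of -0.14. The methyltransferase gene *Ezh2* and its partners *Eed* and *Suz12* had 0.23, -0.24 and -0.02, and *Usp7*, which encodes a deubiquitinase that binds SCML2, -0.17. Setting aside the library labelled wild-type replicate 3, 2 of 27 polycomb genes passed, both lower in mutant, where 3.99% of all genes did.

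The synaptonemal complex is the protein scaffold that joins homologous chromosomes in meiosis, and the list of its genes and of meiotic cohesins, to which *4930447C04Rik* is related by function, had 14 of 16 tested. None passed limma's threshold with all libraries (5 lower and 1 higher at an unadjusted p under 0.05, against 8.79% and 8.21% of all genes). Below 0 were 13, against 47.9% of all genes, and the median log2 fold change was -0.69. Setting aside the library labelled wild-type replicate 3, 7 passed as lower in mutant, where 3.99% of all genes did. The cohesin gene *Rec8* (named after its values were seen) passed as higher, where 1.16% of all genes did. *Rec8* was also above in every mutant library, as 7.31% of genes were. *Sycp3*, a lateral element gene, had 30.1, 32.9 and 7.05 FPKM in wild-type and 18.0, 11.9, 6.92 and 7.06 in mutant libraries, and *Tex12*, a central element gene like *4930447C04Rik*, 17.8, 28.2 and 7.01 against 7.34 to 11. In these 2 the library labelled wild-type replicate 3 was low, as in the 5 genes. The meiotic cohesin genes *Stag3* and *Smc1b* and the ATPase gene *Trip13* had log2 fold changes of -1.0, -0.69 and -0.23, and in each of these 3 that library was above all mutants. *Syce2* had 52.7 ± 5.10 FPKM in wild-type and 49.5 ± 4.25 in mutant.

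Germ cell genes were the list with the lowest median. All 12 were tested, and all 12 were below 0, against 47.9% of all genes. None passed limma's threshold with all libraries (10 lower at an unadjusted p under 0.05, against 8.79% of all genes), and the median log2 fold change was -1.02. With the library labelled wild-type replicate 3 set aside, 10 of 12 passed, all lower in mutant, where 3.99% of all genes did. The median of the 12 became -1.46. *Ddx4* (a germ cell RNA helicase) had 101.7, 94.7 and 53.1 FPKM in wild-type and 33.6 to 42.2 in mutant libraries. *Dazl* (an RNA-binding protein of germ cells) had 271, 211 and 167 against 98.6 to 141. Both had lower values in every mutant library, as 7.59% of all genes did. *Mael*, of the piRNA pathway, had 67.1, 128 and 18.8 against 12.9 to 30.6, and *Dnd1* 111, 141 and 53.0 against 38.1 to 56.1. *Pou5f1* and *Dppa3*, genes of pluripotent and primordial germ cells, had log2 fold changes of -0.76 and -0.57.

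Over these lists, the libraries labelled wild-type separated in different ways. In 12 of the 12 germ cell genes and 12 of the 14 synaptonemal complex genes tested, wild-type replicates 1 and 2 were both above all mutants. This was so in 5 of the 5 genes described here and in 17.1% of all genes. The library labelled wild-type replicate 3 was above all mutants in 4 germ cell genes and 5 synaptonemal complex genes, and in 0 of the 5 genes described here, against 23.6% of all genes. Its difference from the mutant mean (log2(FPKM + 0.5)) was -0.57 for *4930447C04Rik*, -0.45 for *Shcbp1l*, -0.25 for *Scml2*, 0.08 for *Brdt* and 0.23 for *Khdc1a*, against medians of 0.11 in the germ cell list and -0.20 in the synaptonemal complex list. This measure rests on 1 library. It ran from -1.39 to 0.69 in the germ cell list and from -0.90 to 0.63 in the synaptonemal complex list. Both ranges include all 5 genes, so it does not place any of them with either list.

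**Figure D4:**
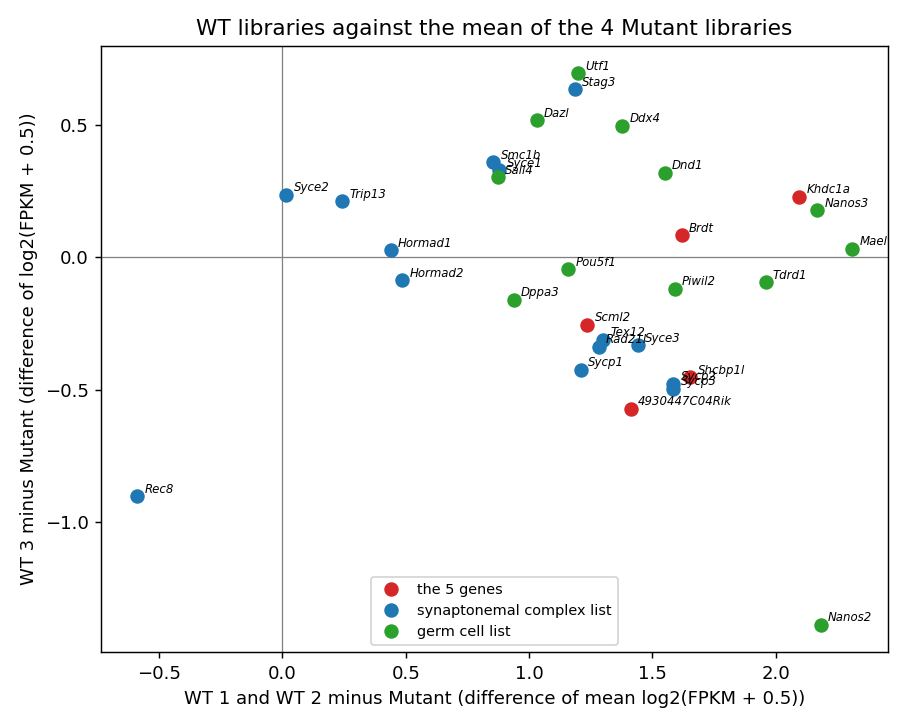
Mean of WT 1 and WT 2 minus the mean of the 4 mutant libraries (x axis) and WT 3 minus the same mean (y axis), both as differences of log2(FPKM + 0.5), for the 5 genes (red), synaptonemal complex genes (blue) and germ cell genes (green), with 1 point per gene. The 5 red points lie between 1.24 and 2.09 on the x axis, and between -0.57 and 0.23 on the y axis. Genes of both lists lie above this y range (such as *Stag3*, *Ddx4* and *Dazl*), within it, and below it (*Nanos2* and *Rec8*).

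Set against the mean log2 level of the germ cell list in the same library, the 5 genes varied less than in FPKM alone. That mean was 5.54, 5.52 and 4.06 in wild-type and 3.75 to 4.34 in mutant libraries. The 5 genes were chosen because repeat loci in or near them fell in mutant testes, and the germ cell list was lower in mutant as well. The smaller spread is therefore no separate result. The list also holds genes that the paper reports as reduced in mutants, such as *Mael* and *Ddx4*, so it is not a neutral measure of germ cell number. For *Brdt* this difference was -3.41, -2.76 and -3.15 in wild-type and -3.03, -3.29, -3.25 and -3.13 in mutant libraries, and for *Scml2* it was -1.38, -1.16 and -1.29 against -0.99, -0.73, -1.18 and -1.01. In *Brdt* the mutant values lay inside the wild-type range, and in *Scml2* 3 of the 4 lay above it. *Khdc1a* had -3.05, -2.35 and -3.10 against -3.18, -3.42, -3.36 and -3.11. All 4 mutant values were below the wild-type values, but -3.10 and -3.11 nearly meet. How many of all genes separate in this way on this scale was not counted. Genes of other cell types moved less or the other way. All 5 Sertoli cell, all 5 fetal Leydig cell and all 3 macrophage genes tested had log2 fold changes above 0 (medians 0.16, 0.47 and 0.20). Of all genes, 47.9% were below 0. The 4 endothelial genes had a median of -0.04, and none of these genes passed limma's threshold. At an unadjusted p under 0.05 (limma), 4 of the 5 Leydig cell genes were higher, against 8.21% of all genes. In 2 Leydig cell genes and 1 macrophage gene all mutant libraries lay above all wild-type libraries, against 7.31% of all genes. Summed FPKM of the germ cell list was 1457, 1171 and 615 in wild-type and 495 to 677 in mutant libraries. Most spermatid genes were too low to test: 2 of 9 were tested, *Hist1h1t* with a log2 fold change of 0.10 and *Ldhc* with -1.11 (1.88, 2.35 and 0.379 FPKM in wild-type and 0.0624 to 0.882 in mutant libraries), and *Tnp2* was listed at 0 in all libraries. The germ cell markers thus moved with the 5 genes, and their part in these values was not tested.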

How the data were processed

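RNA-Seq of whole E14.5 testes was used from 3 wild-type and 4 mutant embryos, grouped by the sample labels. After a filter on base quality, the authors mapped reads to mm10 with TopHat2 2.0.12 (unstranded, up to 10 hits) and, with Cuffquant and Cuffnorm on RefSeq models, made the deposited FPKM values. The authors counted uniquely mapped reads per RepeatMasker element with HTSeq-count, and the deposited counts are raw. The header of each table lacks 1 tab, and columns were taken in the order of the names. Values per library rest on 1 pair of testes each, and Cuffdiff, which needs aligned reads, was not used here.

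Genes that averaged at least 0.5 FPKM were compared by limma 3.58.1 on log2(FPKM + 0.5) (trend, two-sided, Benjamini-Hochberg, 0.05). Loci that averaged at least 1 read were tested with edgeR 4.0.16 (TMM, quasi-likelihood, 0.1) in R 4.3.3. DESeq2 1.42.0 was an alternative. Locus sums were taken over loci wholly inside the RefSeq span and divided by TMM library sizes, and exons came from GENCODE M21. The members, the gene lists and the tests were chosen with earlier results of these data known. Named beside the members were at most 6 genes per list with the highest mean FPKM, the nearest expressed gene on each side, the 3 genes most correlated with each member, up to 4 loci per member past the threshold (or the 2 with most reads), and the genes with the next highest numbers of lower loci. Of the neighbours, 2 are not reported here by name. The plot of wild-type libraries names every gene of 2 lists. Alternatives were other pseudocounts (0.1 and 1), filters, normalizations and thresholds, a replicate block, leaving out each library, and, for sums, other sets of loci. Same-numbered libraries did not deviate together (correlations 0.20, -0.18 and 0.23), so the numbers were not taken as pairs.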

Additional observations from a re-analysis of the deposited data

Results flagged for a closer look

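Among 18 sets of the 4 mutant libraries (FPKM and locus sums of the 5 genes, and the 8 loci past the threshold), 4 had a value far from the other 3 by Dixon's test at 95%, where chance gives about 1 in 20; these sets are not independent of each other. In all 4 it was mutant replicate 1, and its value was high. For *Shcbp1l* it had 2.09 FPKM, against 0.591 to 0.70 in the others, for *Brdt* 1.98 against 1.03 to 1.17, and for *Khdc1a* 1.73 against 0.934 to 1.06. At the B4 copy in exon 9 of *Shcbp1l* it had 7.13 CPM against 0.88 to 1.60. The cause was not tested.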

How the results depend on the processing

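All 5 genes kept an FPKM log2 fold change below 0 with other pseudocounts, quantile normalization, each library left out and a replicate block. With the block the values ran from -0.64 for *Scml2* to -1.44 for *Khdc1a*, the same as without mutant replicate 4. No wild-type library shares the number of that library, so the block takes it out of the comparison and is no separate check. All 5 locus sums kept a ratio below 0 with other scalings, sets of loci and each library left out. No block was run for sums. The block for these genes and the GENCODE span for sums were chosen after seeing the data. The sum of *Khdc1a* without exonic loci has libraries at 0 and no value. Sizes depended on single libraries, though each move was under 1 SD, a spread that the library labelled wild-type replicate 3 widens: without wild-type replicate 2 and without that library, the FPKM log2 fold change was -0.42 and -1.65 for *Shcbp1l*, -0.44 and -1.24 for *Scml2*, -0.34 and -1.41 for *4930447C04Rik*, -0.99 and -2.09 for *Khdc1a*, and -0.69 and -1.62 for *Brdt*, and the locus sum -0.46 and -2.0 for *Shcbp1l*, -0.21 and -0.94 for *Scml2*, -0.27 and -0.96 for *4930447C04Rik*, -1.15 and -2.35 for *Khdc1a*, and -0.08 and -0.73 for *Brdt*. The numbers of loci past the threshold depended on the processing. Inside the 5 genes 8 loci were lower with edgeR; this was 0 with DESeq2 (13 of 149 at an unadjusted p under 0.05; 111 had no adjusted p), 1 with a mean of at least 10 reads, 3 with a replicate block, and 1 to 18 when 1 library was left out: 18 without the library labelled wild-type replicate 3, 1 without wild-type replicate 2, and 4 each without wild-type replicate 1, mutant replicate 2 or mutant replicate 4. The MLTR11B copy of *Khdc1a* was past the threshold under 13 of 14 settings, DESeq2 being the exception, and RLTR40 of *Shcbp1l* under 11. Over all loci, 375 (276 lower) became 15 (11 lower) with DESeq2, 17 (17) with the stricter filter, 205 (136) with the block, and 193 to 617 (77 to 505) without 1 library, the most without the library labelled wild-type replicate 3, the fewest without wild-type replicate 2, and 240 without mutant replicate 2. Over all genes, 1 became 4 without a filter, 3 with quantile normalization, 0 with the block and 1 to 722 without 1 library. In the gene lists together, 0 became 0 to 22 without 1 library: 0 to 10 germ cell, 0 to 8 synaptonemal complex, 0 to 2 polycomb genes and 0 to 1 paralogs; 0 to 2 neighbours passed. The higher ends are those without the library labelled wild-type replicate 3. The causes were not tested. At 3454317 to 4670830 reads per library, most of the 375 loci in the 5 genes had under 1 read on average and could not be compared.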
